A study of Homo sapiens with 8 samples.

Results

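The genes described here are 10 genes of the cell-cell junctions that anchor epithelial cells to each other: the classical cadherins CDH1 and CDH3, their plaque partners CTNNA1, CTNND1 and JUP, and the desmosome genes DSP, DSG2, DSC2, PKP2 and PKP3. They were chosen by name from a table of 63816 gene entries, and each symbol stood on 1 entry. Expression was measured by RNA-seq in 8 samples labelled Caco-2, an established line from a human colorectal adenocarcinoma that the study describes as lacking Siglec-XII. In 4 samples the cells carried the empty pcDNA3.1 vector, and in the other 4 they carried the same vector with full-length human SIGLEC12, which encodes Siglec-XII, a sialic acid-binding family receptor that no longer binds its ligand in humans. Cells of both groups were transfected with plasmid, which the study's methods call linearized for SIGLEC12, and were grown in G418. The series describes them as stable clones, of a number it does not give. Because the vector and SIGLEC12 cells were transfected and selected apart, clonal differences and an effect of Siglec-XII cannot be told apart. The series text speaks of cultures and the methods of technical replicate libraries, in both cases in a number below the 4 samples per group listed, so what each sample stands for is not settled, and p-values and errors measure the spread between these samples, which may be technical. Cell adhesion was among the properties assayed on such transfectants, as attachment to a plate and not as adhesion between cells. The question asked here is how the mRNA of the cell-cell junctions compared between the 2 groups of transfectants.

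Classical cadherins are transmembrane proteins whose outer domains bind cadherins on the neighbouring cell. Their tails hold p120-catenin (CTNND1) near the membrane and β-catenin or plakoglobin (JUP) further along, and these bind α-catenin (CTNNA1), which meets the actin cytoskeleton. Desmosomes use a second set of cadherins, the desmogleins and desmocollins, whose tails hold plakoglobin and plakophilins (PKP2, PKP3), and desmoplakin (DSP) ties this plaque to keratin filaments. Plakoglobin is the plaque protein found in both kinds of junction. Intestinal epithelium is known for E-cadherin (CDH1), desmoglein 2 and desmocollin 2, whereas P-cadherin (CDH3) is known from placenta, the basal layers of skin and some carcinomas.

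The labels were first checked on SIGLEC12 itself. It stood between 0.0399 and 0.122 TPM (a level scaled to transcript length and to the library's total) in the empty vector samples and between 1582 and 1734 TPM in the Siglec-XII samples (exact permutation test, two-sided, p = 0.0286, and no smaller p is possible with groups of 4). Between 15513 and 15934 entries reached 1 TPM in a sample, and 15590 entries that did so in at least 4 samples were tested. The markers of colon epithelium were mostly absent: 8 of 10 did not pass this filter, KRT20, FABP1 and SI were listed at 0 in all 8 samples, and CDH17, HNF4A, LGALS4 and VIL1 did not exceed 1.30 TPM in any sample, while the transcription factors CDX1 (128 to 165 TPM) and CDX2 were expressed. Of 10 trophoblast markers 9 passed the filter, and GATA3 (331 to 479 TPM), HSD3B1 (316 to 370 TPM) and TFAP2C (152 to 173 TPM) were high. Other members of the list were low: CYP19A1 ran from 2.28 to 7.29 TPM and ERVW-1 from 1.08 to 1.59 TPM. CGA, which passed, and CGB5, which did not, both subunits of chorionic gonadotropin, stayed at or under 1.35 TPM. The summed level of the trophoblast list ran from 1140 to 1246 TPM with the empty vector and from 1163 to 1229 TPM with Siglec-XII, and that of the colon list from 163 to 186 TPM and from 190 to 215 TPM. Of 8 fibroblast markers 5 passed the filter, THY1 was listed at 0 in every sample, and the sum ran from 70.8 to 87.0 TPM and from 83.3 to 89.2 TPM. Most defining markers of colon epithelium were thus absent, while several but not all trophoblast markers were high in both groups. This puts the labelled identity of the cells in question, and every level below is that of the cells as labelled. Some of these markers differed between groups by as much as the junction genes did, in both directions. The log2 fold change was 0.26 for COL1A1 (limma adjusted p = 0.149), 0.23 for CDX2 (0.252), 0.19 for GATA2 (0.103, groups not overlapping) and 0.17 for CDX1 (0.202), with Siglec-XII higher in each. Of the tested markers, 3 of 9 for trophoblast and 2 of 5 for fibroblasts were lower with Siglec-XII. Among these were CYP19A1 (-0.35, limma adjusted p = 0.479), CGA (-0.32, 0.574), LUM (-0.24, 0.570) and GATA3 (-0.15, 0.473), each with overlapping groups. The part of these markers in the results was not tested.

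All 10 junction genes were expressed well above the filter in every sample. In the empty vector samples the order of mean levels was CDH3 (344 ± 17.1 TPM, SD, n = 4), JUP (340 ± 18.3), CDH1 (288 ± 17.8), CTNNA1 (202 ± 12.2), PKP2 (188 ± 11.3), CTNND1 (180 ± 11.1), DSP (122 ± 6.95), PKP3 (116 ± 12.9), DSG2 (58.1 ± 4.68) and DSC2 (28.7 ± 1.43). Neighbours in this order whose ranges overlapped were CDH3 and JUP, CTNNA1 and PKP2, PKP2 and CTNND1, and DSP and PKP3. Within each sample CTNNA1 was still above PKP2, and PKP2 above CTNND1, in 4 of 4 samples, whereas CDH3 was above JUP and DSP above PKP3 in 2 of 4, so these last places are not set apart. In the Siglec-XII samples JUP (382 ± 21.5 TPM, SD, n = 4) stood above CDH3 (330 ± 4.24) without overlap, the ranges of CDH3 and CDH1 (324 ± 12.9) overlapped, and DSP (145 ± 8.89) stood above PKP3 (121 ± 9.61), narrowly without overlap. The desmosomal cadherins were the 2 lowest of the 10 genes in both groups, below each of the plaque genes. As a pool the 10 genes took between 1803 and 1983 TPM with the empty vector and between 1971 and 2111 TPM with Siglec-XII.

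**Figure D1:**
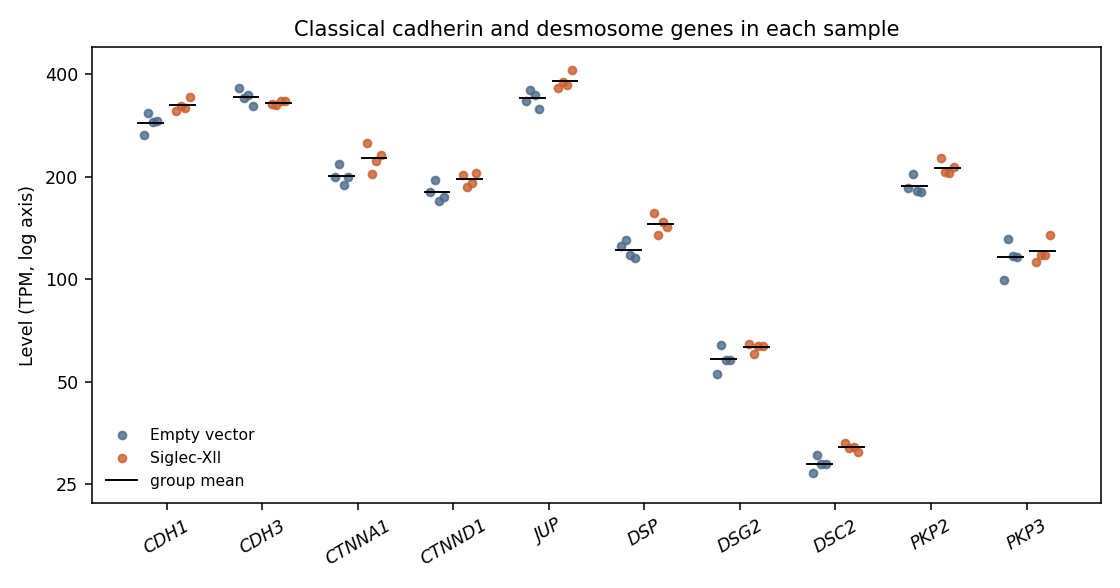
Level of each gene in each sample, in TPM on a log axis, with 4 points per group (blue, empty vector; orange, Siglec-XII) and a black line at the group mean. Levels span from 27.0 TPM (DSC2) to 413 TPM (JUP), and the orange points sit slightly above the blue ones for most genes but not for CDH3.

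Whether the junction genes differed between the 2 transfected populations was asked by limma over all 15590 entries. Of the 10 genes, 0 passed an adjusted p under 0.05 (limma, Benjamini-Hochberg over all entries), a threshold that 0.648% of all entries passed, and their adjusted p ran from 0.104 to 0.752. With no adjustment, 7 of the 10 reached a limma p of 0.05 or less, all higher with Siglec-XII, where 16.5% of all entries reached this p and 13.9% did so with a higher level. This count was 4 with quantile normalization, where 12.6% of all entries reached this p and 7.02% did so with a higher level, and 3 with equal upper quartiles (12.9% and 7.20%). It was 5 with the 100 most abundant entries and mitochondrial transcripts left out (12.6% and 8.40%). By the selection the study used, a p of 0.05 or less together with a change of at least 2-fold, 0 of the 10 were taken, against 0.603% of all entries. The differences were small: the median log2 fold change of the 10 genes was 0.16 against 0.07 for all tested entries, and 9 of 10 were above 0, as were 68.1% of all entries. For 5 genes, CDH1, JUP, DSP, DSC2 and PKP2, every Siglec-XII sample lay above every empty vector sample, which 9.17% of all entries did in this direction. This separation depended on how the samples were scaled, since with equal upper quartiles 1 gene, DSP, remained separated (4.70% of entries), and the same held once the 100 most abundant entries and mitochondrial transcripts were removed (1 gene, 5.78% of entries). Both scalings were added for this count after the data were seen. With equal upper quartiles the median of the 10 genes was 0.10 and that of all entries 0.01, and 8 of 10 genes lay above the median of all entries, the same number as with the values as deposited. Fold changes in these libraries also moved with transcript length: 7 of the 10 genes have a longest coding transcript of 4000 nt or more, and the median log2 fold change of all 5240 tested genes of that length was 0.10, against 0.05 for 7222 shorter genes. The part of transcript length in the junction genes' values was not tested.

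**Figure D2:**
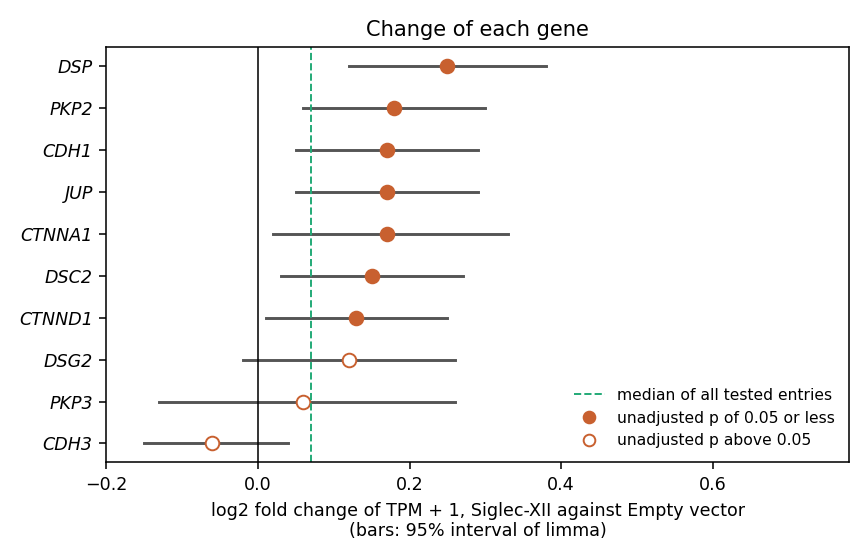
Log2 fold change of TPM + 1 for each gene, Siglec-XII against empty vector, with the 95% interval of limma as a bar, filled where the unadjusted p was 0.05 or less, and the median of all tested entries (0.07) as a dashed line. DSP stands highest at 0.25, CDH3 lowest at -0.06, and the intervals of DSG2, PKP3 and CDH3 include 0.

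CDH1 (ENSG00000039068, chromosome 16, 68771195 to 68869440 on the plus strand of GRCh37), E-cadherin, the main adhesion receptor of epithelial adherens junctions, was at 265, 308, 289 and 291 TPM in empty vector replicates 1 to 4 and at 313, 322, 318 and 343 TPM in Siglec-XII replicates 1 to 4. The groups did not overlap, but the highest empty vector sample and the lowest Siglec-XII sample were only a few TPM apart. The fold was 1.12 (95% interval 1.04 to 1.22), or 0.17 ± 0.05 (SE) on the log2 scale, with a limma adjusted p of 0.176. CDH3 (ENSG00000062038, chromosome 16, 68670092 to 68761371, plus strand), P-cadherin, lies upstream of CDH1 with 9823 bases between the annotated genes. CDH3 was at 364, 341, 347 and 322 TPM with the empty vector and at 327, 326, 334 and 334 TPM with Siglec-XII. It was the only 1 of the 10 genes with a lower mean in the Siglec-XII samples, its groups overlapped, and its log2 fold change was -0.06 (95% interval -0.15 to 0.04, limma adjusted p = 0.564). The value depended on the scaling and on single samples, at -0.12 with equal upper quartiles, -0.10 with the most abundant entries left out and -0.03 without empty vector replicate 1.

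Because both cadherins are read per length in the same sample, their ratio does not move with the scaling of the samples. CDH3 stood at 1.37, 1.11, 1.20 and 1.11 times CDH1 in the empty vector samples and at 1.04, 1.01, 1.05 and 0.97 times CDH1 in the Siglec-XII samples. The means were 1.20 ± 0.13 and 1.02 ± 0.03 (SD, n = 4), the groups did not overlap, and only Siglec-XII replicate 4 had more CDH1 than CDH3. The widest value came from empty vector replicate 1, which had the lowest CDH1 and the highest CDH3, and without it the difference of the means went from -0.18 to -0.12. The ratio is a description of 2 genes chosen with results known and was not tested.

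CTNNA1 (ENSG00000044115, chromosome 5, 137946656 to 138270723), α-catenin, ran from 189 to 218 TPM with the empty vector and from 204 to 252 TPM with Siglec-XII. The groups overlapped, with Siglec-XII replicate 2 inside the empty vector range, and the log2 fold change was 0.17 ± 0.07 (SE, limma adjusted p = 0.255). CTNND1 (ENSG00000198561, chromosome 11, 57520715 to 57587018), p120-catenin, which holds cadherins at the cell surface, ran from 170 to 196 TPM and from 187 to 205 TPM, again with overlap, and differed by 0.13 ± 0.05 (SE, limma adjusted p = 0.287) on the log2 scale. Relative to CDH1, these catenins kept nearly the same level in both groups. CTNNA1 was at 0.70 ± 0.04 of CDH1 with the empty vector, against 0.70 ± 0.07 with Siglec-XII, and CTNND1 at 0.63 ± 0.04 and 0.61 ± 0.03 (SD, n = 4). JUP (ENSG00000173801, chromosome 17, 39910856 to 39943183, minus strand), plakoglobin, was at 335, 360, 348 and 317 TPM with the empty vector and at 364, 380, 372 and 413 TPM with Siglec-XII. Every Siglec-XII sample lay above every empty vector sample, with a fold of 1.12 (95% interval 1.03 to 1.22) and a limma adjusted p of 0.189. JUP was far more abundant than CTNNB1, β-catenin, its relative in adherens junctions and the effector of Wnt signalling, at 5.83 ± 0.56 times CTNNB1 with the empty vector and 5.83 ± 0.28 times with Siglec-XII (SD, n = 4).

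**Figure D3:**
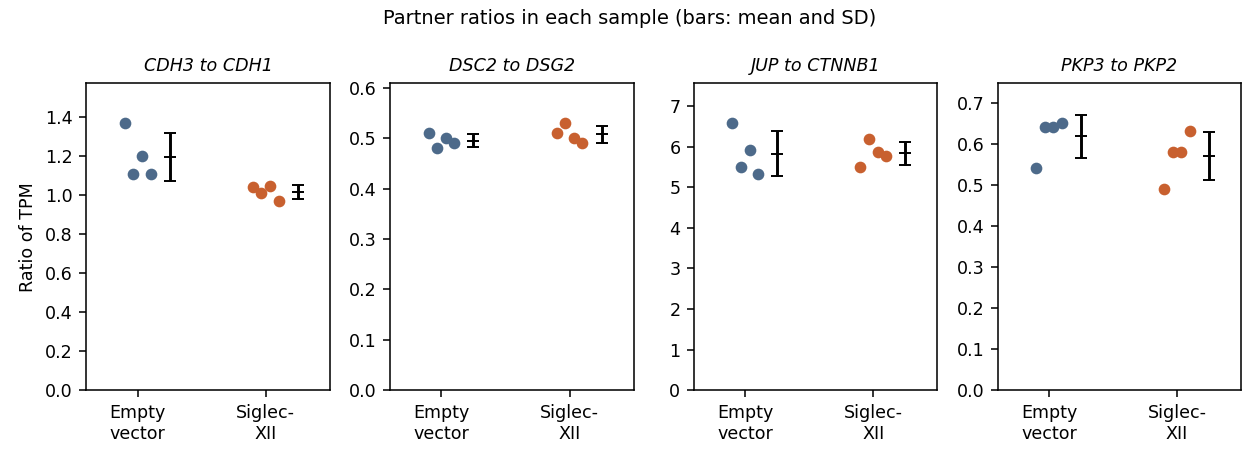
Ratio of TPM between partner genes in each sample, with 4 points per group and the mean and SD beside them, each panel starting at 0. CDH3 to CDH1 is lower in all Siglec-XII samples (1.20 against 1.02 on average), whereas the other 3 ratios overlap between groups.

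DSP (ENSG00000096696, chromosome 6, 7541571 to 7586947, plus strand), desmoplakin, had the largest difference of the 10 genes. It was at 125, 130, 118 and 115 TPM with the empty vector and at 156, 135, 147 and 142 TPM with Siglec-XII. The groups did not overlap, Siglec-XII replicate 2 being the closest to the empty vector samples and replicate 1 the farthest. The fold was 1.19 (95% interval 1.09 to 1.30), the log2 fold change 0.25 ± 0.06 (SE), higher than that of 90.0% of tested entries or equal to it, and the limma adjusted p 0.104. Over the 17 alternatives its log2 fold change stayed between 0.19 and 0.28 and its limma adjusted p between 0.0722 and 0.235.

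The desmosomal cadherins are encoded by a cluster of 7 genes on chromosome 18 that spans 559.6 kb in GRCh37, in the order DSC3, DSC2, DSC1, DSG1, DSG4, DSG3 and DSG2. DSG2 (ENSG00000046604, 29078140 to 29128971, plus strand), the desmoglein of simple epithelia, was at 52.6, 64.0, 57.8 and 57.9 TPM with the empty vector and at 64.5, 60.4, 63.6 and 63.4 TPM with Siglec-XII. Empty vector replicate 2 was as high as the Siglec-XII samples, and the log2 fold change of 0.12 had an interval from -0.02 to 0.26 (limma adjusted p = 0.373). DSC2 (ENSG00000134755, 28638806 to 28682485, minus strand), the desmocollin of simple epithelia, was at 27.0, 30.5, 28.7 and 28.6 TPM with the empty vector and at 33.0, 31.9, 32.0 and 31.1 TPM with Siglec-XII. Its groups did not overlap, with a log2 fold change of 0.15 ± 0.05 (SE, limma adjusted p = 0.216). DSG2 made up 59.8% ± 0.584 of the TPM of the cluster with the empty vector, against 59.2% ± 0.639 with Siglec-XII, DSC2 29.6% ± 0.649 and 30.1% ± 0.916, and DSC3 10.2% ± 0.386 and 10.4% ± 1.13 (SD, n = 4). DSC1 stayed under 0.444 TPM or at it, and DSG1, DSG3 and DSG4, the desmogleins of stratified epithelium and hair, did not exceed 0.0597 TPM in any sample. The ratio of DSC2 to DSG2 was 0.49 ± 0.02 and 0.51 ± 0.02 (SD, n = 4), with overlap, and lay between 0.48 and 0.53 in all samples.

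The start regions of genes in this group are shown because 5 of the 10, CTNNA1, JUP, DSP, DSG2 and DSC2, have an entry in the RefSeq promoter table (build GRCh38.p14, 250 bases before to 50 after a start), with 10 windows among them. The letters CAGGTG, an E-box to which the SNAI and ZEB repressors of cadherin genes can bind, were searched on both strands, and 4 of the 10 windows held them, against 20.6% of all 35116 windows. The windows with a match are printed 5′ to 3′ on the strand of the gene, with each match in capitals (CACCTG where it lies on the other strand). JUP and DSC2 each have a further window without a match, and no CTNNA1 window held one. JUP, DSP and DSG2 hold a pair of matches each, and DSC2 holds a single one.
JUP, chr17:41785927-41786226, minus strand: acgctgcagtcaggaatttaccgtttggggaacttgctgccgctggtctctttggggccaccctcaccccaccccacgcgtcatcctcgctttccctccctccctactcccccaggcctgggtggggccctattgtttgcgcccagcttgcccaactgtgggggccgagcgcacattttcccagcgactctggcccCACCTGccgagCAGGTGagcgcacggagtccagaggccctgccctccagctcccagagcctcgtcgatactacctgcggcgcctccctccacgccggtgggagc
DSP, chr6:7541421-7541720, plus strand: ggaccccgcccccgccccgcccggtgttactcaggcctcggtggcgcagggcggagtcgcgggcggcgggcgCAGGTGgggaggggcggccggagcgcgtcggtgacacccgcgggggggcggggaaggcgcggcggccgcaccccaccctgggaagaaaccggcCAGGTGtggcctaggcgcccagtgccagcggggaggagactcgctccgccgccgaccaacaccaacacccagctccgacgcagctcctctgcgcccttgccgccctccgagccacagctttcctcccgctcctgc
DSG2, chr18:31497927-31498226, plus strand: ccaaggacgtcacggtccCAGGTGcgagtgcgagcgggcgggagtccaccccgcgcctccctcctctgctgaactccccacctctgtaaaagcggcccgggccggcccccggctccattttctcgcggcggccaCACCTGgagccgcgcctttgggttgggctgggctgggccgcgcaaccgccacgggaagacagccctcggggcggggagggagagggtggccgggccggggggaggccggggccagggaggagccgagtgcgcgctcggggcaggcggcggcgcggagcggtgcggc
DSC2, chr18:31102372-31102671, minus strand: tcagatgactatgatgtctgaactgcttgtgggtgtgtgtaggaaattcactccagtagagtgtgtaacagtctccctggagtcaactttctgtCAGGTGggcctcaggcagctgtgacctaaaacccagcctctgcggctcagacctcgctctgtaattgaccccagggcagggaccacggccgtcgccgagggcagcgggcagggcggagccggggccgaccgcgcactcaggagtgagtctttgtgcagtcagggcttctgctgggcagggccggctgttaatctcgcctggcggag
The 10 windows had a median of 66.2% G and C and 22.5 CG steps, against 58.7% and 14 over all windows. They were not alike: the DSP and DSG2 windows were 77% and 76.7% G and C, with 37 and 36 CG steps. The CTNNA1 windows ran from 42.3% to 77.7% G and C and from 3 to 44 CG steps, the lowest of each lying below the median of all windows. The letters GGGCGG, the core bound by SP1 family factors, were in 7 of the 10 windows, against 45.0% of all windows. These are descriptions of the sequence, and binding was not measured in these data.

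The plakophilins were read next, and a difference between their changes was not tested. PKP2 (ENSG00000057294, chromosome 12, 32943679 to 33049732, minus strand), which links desmoplakin to the desmosomal cadherins, was at 185, 204, 181 and 180 TPM with the empty vector and at 227, 206, 205 and 213 TPM with Siglec-XII. The groups did not overlap, although empty vector replicate 2 came within a few TPM of Siglec-XII replicates 2 and 3, and the fold was 1.13 (95% interval 1.04 to 1.23, limma adjusted p = 0.165). PKP3 (ENSG00000184363, chromosome 11, 392614 to 404908, plus strand), found in desmosomes of nearly all epithelial layers, ran from 99.5 to 131 TPM and from 112 to 135 TPM. Its ranges overlapped, its spread with the empty vector was the widest of the 10 genes in that group (a coefficient of variation of 11.1%), and its log2 fold change of 0.06 had an interval from -0.13 to 0.26 (limma adjusted p = 0.752). Without empty vector replicate 1, its lowest sample, the value was -0.01. The ratio of PKP3 to PKP2 was 0.62 ± 0.05 with the empty vector, against 0.57 ± 0.06 with Siglec-XII (SD, n = 4), with overlap.

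The genes also moved with single samples. Empty vector replicate 2 was the highest of its group for 9 of the 10 genes, CDH3 being the exception, and the lowest was replicate 1 for 4 genes, replicate 4 for 4 and replicate 3 for 2. Among the Siglec-XII samples the highest was replicate 1 for 5 genes, among them CTNNA1, DSP and PKP2, and replicate 4 for the other 5, among them CDH1, JUP and PKP3, while replicate 2 was the lowest for 5. Without empty vector replicate 2 the number of junction genes at an unadjusted limma p of 0.05 or less went from 7 to 8 (19.4% of all entries), and without Siglec-XII replicate 1 it went to 4 (14.2% of all entries). The number past an adjusted p under 0.05 was 0 in each of these fits.

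**Figure D4:**
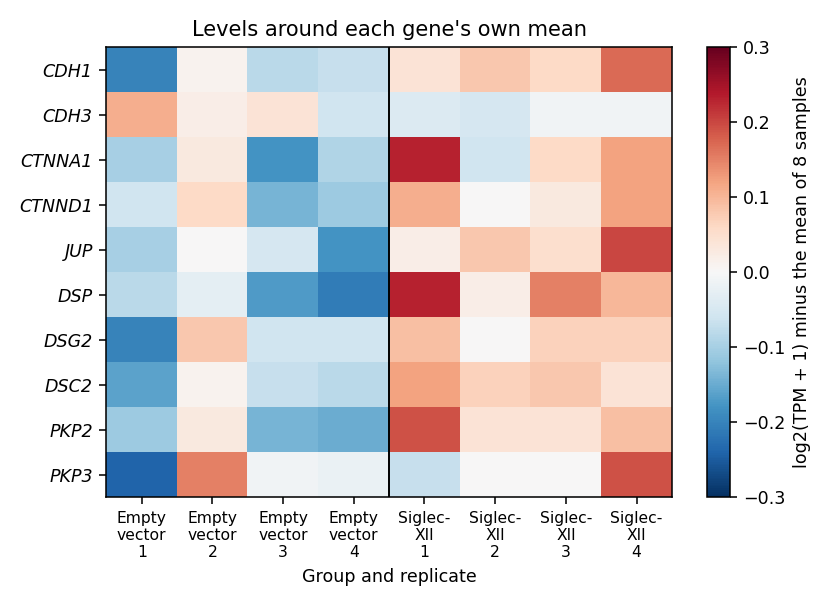
Log2(TPM + 1) of each gene minus its mean over the 8 samples, with samples in columns by group and replicate and red for higher and blue for lower values. Most rows turn from blue on the left to red on the right, CDH3 runs the other way with 0.11 in empty vector replicate 1, and CTNNA1 and DSP share their highest value, 0.23, in Siglec-XII replicate 1.

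Outside the 10 genes, 3 further lists of junction genes were read, and their counts stand against 68.1% of all entries with a log2 fold change above 0 and 16.5% with a p of 0.05 or less before adjustment. Of 15 other cadherins 4 passed the filter, 3 higher and 1 lower with Siglec-XII, with 0 past an adjusted p under 0.05 (limma) while 1, CDH4 (R-cadherin), had a p of 0.05 or less before adjustment. CDH4 was near the filter, at 1.13 ± 0.342 and 1.66 ± 0.125 TPM (SD, n = 4), with a log2 fold change of 0.33 (limma adjusted p = 0.291) that was 0.56 with a pseudocount of 0.1, where the unadjusted p no longer reached 0.05. CDH4 has 2 entries in the table, so reads may be split between them. The others that passed were CDH5 (VE-cadherin, known from endothelium, 7.59 ± 2.70 and 6.52 ± 0.411 TPM), CDH13 (T-cadherin, 11.6 ± 1.55 and 12.7 ± 1.38 TPM) and CDH24 (2.97 to 4.39 TPM over both groups). CDH2, the N-cadherin known from mesenchymal and neural cells, did not exceed 0.0149 TPM in any sample. CDH1 and CDH3 were thus the highest of the cadherins read here. Of 14 other adherens junction plaque genes 11 passed, 10 higher and 1 lower, with 0 past an adjusted p under 0.05 (limma) while 2 had a p of 0.05 or less before adjustment. These were ACTN4, an actin crosslinker, with a log2 fold change of 0.19 (limma adjusted p = 0.219), and AFDN (afadin), which joins nectins to actin, with 0.11 (limma adjusted p = 0.255). ACTN4 has 2 entries in the table, so reads may be split between them. CTNNB1 was at 58.7 ± 6.01 and 65.6 ± 4.35 TPM (SD, n = 4), with a log2 fold change of 0.16 and an interval from -0.02 to 0.34.

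Of 11 other desmosome genes 4 passed the filter, 3 higher and 1 lower, with 0 past an adjusted p under 0.05 (limma) while 1 had a p of 0.05 or less before adjustment. This was PPL (periplakin), a plakin related to desmoplakin, at 38.3 ± 1.07 and 41.7 ± 0.939 TPM (SD, n = 4), with a log2 fold change of 0.12 (limma adjusted p = 0.247). PKP4 was at 57.0 ± 3.19 and 56.1 ± 2.07 TPM, PERP at 84.7 ± 3.41 and 91.0 ± 3.81 TPM and DSC3 at 9.92 ± 0.934 and 11.1 ± 1.51 TPM (SD, n = 4). PKP1 and EVPL (envoplakin), genes of stratified epithelium, stayed below 1 TPM in all samples.

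**Figure D5:**
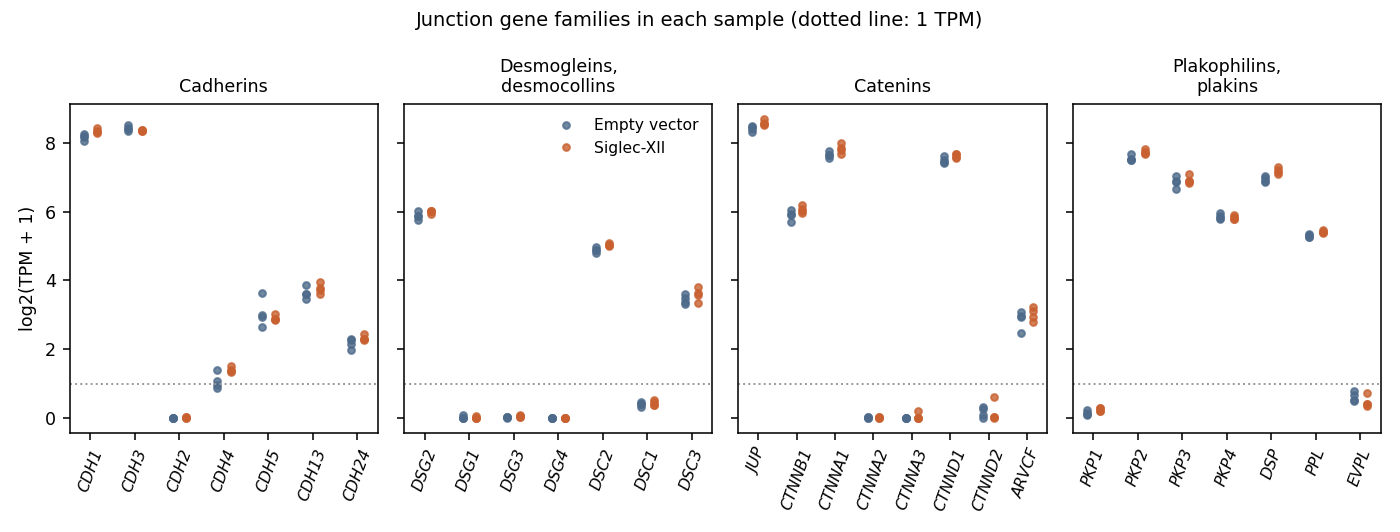
Log2(TPM + 1) of family members in each sample (4 points per group; blue, empty vector; orange, Siglec-XII), in panels for cadherins, desmogleins and desmocollins, catenins, and plakophilins and plakins, with a dotted line at 1 TPM. CDH1 and CDH3 stand far above the other cadherins shown, CDH2 lies at about 0, and DSG2 and DSC2 are the highest of the desmosomal cadherins, with DSC3 next.

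Regulators known to act on junction genes were read as 2 lists, again against 68.1% of all entries above 0 and 16.5% at a p of 0.05 or less before adjustment. Of 10 cadherin repressors and mesenchymal genes 6 passed the filter and 6 had a mean above that of the empty vector, with 0 past an adjusted p under 0.05 (limma) while 2 had a p of 0.05 or less before adjustment. These were FN1 (fibronectin, 10.5 ± 1.21 and 14.0 ± 0.758 TPM, SD, n = 4, log2 fold change 0.39, limma adjusted p = 0.102) and TCF3, which encodes the E-box factors E12 and E47 (56.3 ± 2.61 and 65.2 ± 4.92 TPM, log2 fold change 0.21, limma adjusted p = 0.168). VIM (vimentin), a mesenchymal gene, also passed, at 29.1 ± 1.75 and 30.6 ± 2.41 TPM (log2 fold change 0.07, limma adjusted p = 0.663). SNAI1 (4.26 ± 0.267 and 4.74 ± 0.595 TPM), SNAI2 (13.2 ± 2.24 and 13.6 ± 0.610 TPM) and SNAI3 (1.29 ± 0.455 and 1.58 ± 0.154 TPM) were expressed at low levels in both groups. ZEB1 did not exceed 0.376 TPM, ZEB2 did not exceed 1.10 TPM, TWIST1 did not exceed 0.384 TPM, and TWIST2 was listed at 0 in every sample. Of 11 genes of the epithelial program 11 passed, 10 higher and 1 lower, with 0 past an adjusted p under 0.05 (limma) while 2 had a p of 0.05 or less before adjustment. KLF4, a factor of epithelial differentiation, had the lowest p among them, at 10.8 ± 1.53 and 15.9 ± 1.65 TPM (SD, n = 4), differing by 0.52 on the log2 scale (limma adjusted p = 0.0797). Its limma adjusted p was 0.0285 without empty vector replicate 2 and ran from 0.0508 to 0.189 in the other alternatives. OVOL1 was at 12.8 ± 1.09 and 15.6 ± 1.14 TPM (log2 fold change 0.27, limma adjusted p = 0.160). GRHL2, an activator of CDH1 in epithelia, was at 35.1 ± 4.94 and 37.9 ± 0.848 TPM, and EPCAM, an epithelial adhesion protein, was at 540 ± 13.7 and 566 ± 20.8 TPM (SD, n = 4).

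The entries whose pattern over the 8 samples was most like that of a junction gene were sought among those that varied at least as much, by the mean absolute difference of log2 levels after each was centred on its own mean. For CDH1, among 11092 entries, these were BSG (0.016), GRB10 (0.018) and MAGED1 (0.018). For DSP, among 7506 entries, they were CDK6 (0.029), ARHGAP12 (0.032) and RMND5A (0.034), in log2 units. With 8 samples in 2 groups, any entry with a like difference between groups scores well on this measure.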

How the data were processed

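Libraries from 8 samples were made, per the labels, with an rRNA-depleting strand-specific kit, although an mRNA kit stands in the published methods. The authors quantified reads with kallisto (version 0.45.0 per the submitters' processing notes) against hg19 and deposited log2 values, log2(TPM + 1), per gene entry. Each column summed to 1000000 TPM, and depth is given only as a range common to all samples. Exact read counts per library and counts per gene are therefore unknown, and intervals from counts could not be given. The published methods name featureCounts for gene counts and another kallisto version, and how the TPM per entry were formed is not given in the sources used here. Values were used as deposited, and fold changes are on the log2(TPM + 1) scale.

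Groups were taken from the sample titles. limma 3.58.1 (R 4.3.3; lmFit, eBayes with trend) was fitted over 15590 entries at 1 TPM or more in at least 4 samples, with Benjamini-Hochberg adjustment over all of them, and was tested on simulated data. For SIGLEC12 an exact permutation test, two-sided, was used (scipy 1.17.1). The methods of the study name a test for counts, which was not used here because the table holds log2 values. Positions are from GENCODE on GRCh37, promoter windows from RefSeq. Figures were drawn with matplotlib 3.10.9. The text names the 10 genes, genes of the lists, SIGLEC12 and, for CDH1 and DSP, the 3 most alike entries. List genes below the filter are named only by level. The genes and lists were chosen with earlier results of these data known. Where a symbol had several entries, the one with the highest mean was used. Alternatives were a pseudocount of 0.1, other filters and scalings, the replicate number as a block, no trend, array weights and each sample left out.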

Additional observations from a re-analysis of the deposited data

Results flagged for a closer look

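Of 28 groups of 4 values examined for a sample far from the others, 1 stood out, where chance gives about 1 in 20. The ratio of PKP3 to PKP2 was 0.538 in empty vector replicate 1, against 0.64 to 0.65 in the other 3 samples of that group. In this sample PKP3 was at its lowest level of all 8 (99.5 TPM), while PKP2 (185 TPM) lay within the range of its group.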

How the results depend on the processing

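No junction gene passed an adjusted p under 0.05 in limma under any of the 17 alternatives, with a lowest adjusted p of 0.0722 for DSP without empty vector replicate 2. The direction of 9 of the 10 genes was kept in all of them, and that of PKP3 ran from -0.01 without empty vector replicate 1 to 0.12 without replicate 2. The number at an unadjusted limma p of 0.05 or less, 7 as reported, was 4 with quantile normalization (12.6% of all entries) and 3 with equal upper quartiles (12.9%). It was 5 with the most abundant entries left out (12.6%), and ran from 4 to 8 over fits that left out a sample (12.7% to 19.4%). CDH1, DSP and PKP2 stayed at an unadjusted limma p of 0.05 or less in 17 of 17 alternatives, JUP in 16, DSC2 in 14, CTNNA1 in 8 and CTNND1 in 6. The number of genes with separated groups went from 5 to 1 with equal upper quartiles and with the most abundant entries left out. It was not counted with quantile normalization. Over the whole table the 101 entries past an adjusted p under 0.05 became 51 with no filter, 54 without the trend and 49 to 159 with a sample left out (159 without empty vector replicate 2, 49 without replicate 3, 56 and 59 without replicates 1 and 4, 58 without Siglec-XII replicate 2 or 4, 63 and 64 without replicates 1 and 3), and the share of them that was higher, 52.5%, became 32.6% with quantile normalization, 29.3% with equal upper quartiles and 33.3% with the most abundant entries left out, and ran from 27.6% (without Siglec-XII replicate 4) to 69.8% (without empty vector replicate 2) with the scaling unchanged and a sample left out. The cause of these shifts was not tested. KLF4 passed the threshold only without empty vector replicate 2 (log2 fold change 0.60, limma adjusted p = 0.0285). In the other alternatives its limma adjusted p ran from 0.0508 with array weights to 0.189 with no filter. With the replicate number as a block, 69 entries and 0 junction genes passed an adjusted p under 0.05, 6 junction genes had an unadjusted p of 0.05 or less (15.8% of all entries, 12.8% higher) and the share of higher entries was 26.1%. Same-numbered samples of the 2 groups correlated in their deviations from the group means, across entries, by -0.07 to 0.06, and 4 of 8 samples correlated best with their own number, so the numbers were not taken as pairs. Depth is given only as a range common to all samples, and counts per gene are not given. The part of counting error in the spread between samples was not tested.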
